A study of Mus musculus with 12 samples.

Results

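The inhibitor of DNA binding genes Id1, Id2, Id3 and Id4 were examined in mouse embryonic stem cells (mESCs) together with Smad6, Bambi, Bmp4 and Bmpr1a. These 8 genes were chosen by name as a set of bone morphogenetic protein (BMP) signalling genes, out of 39017 genes in the deposited count table. Poly(A) RNA had been sequenced from 12 libraries in 4 groups of 3 biological replicates. The J1 line is wild type and male. 3B3-3l is an mESC line in which both Dnmt3a and Dnmt3b are knocked out (Dnmt3a-/-, Dnmt3b-/-) and which carries a Dnmt3b transgene driven by the ubiquitous CAG promoter. It also expresses Dnmt3l from a CAG promoter, as a stable line made by drug selection. Each line was grown in serum or in 2i. Serum medium was DMEM with 15% fetal calf serum and, by the labels, 500 U/ml leukaemia inhibitory factor (LIF). The 2i medium was N2B27, which is free of serum, with 1 uM of the MEK inhibitor PD0325901, 3 uM of the GSK3 inhibitor CHIR99021 and 1000 U/ml LIF. Serum, basal medium, both inhibitors and, by the labels, the LIF dose therefore changed together, and their effects cannot be told apart. In serum, J1 cells were kept on feeder cells that were depleted by replating, whereas 3B3-3l cells grew on gelatin, so line and surface cannot be told apart there. There was 1 line of each genotype, so genotype and line cannot be told apart either.

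BMP ligands bind pairs of type I and type II serine/threonine kinase receptors, and the type I receptor then phosphorylates SMAD1, SMAD5 and SMAD9. These enter the nucleus with SMAD4 and switch on target genes, of which the Id genes are the best known. Id proteins have a helix-loop-helix domain but no basic region, so they pair with E proteins and keep them off DNA. In mESCs grown with LIF, BMP in serum is known to hold back differentiation through the Id genes, whereas 2i medium sustains the cells without added BMP. Smad6 and Bambi are feedback inhibitors of the pathway that are themselves BMP targets.

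Libraries held 37050652 to 44515395 estimated reads, and levels are given as CPM, counts scaled by library size. The summed level of 6 pluripotency markers was 3330 to 4470 CPM over the 12 libraries. Dnmt3b stood at 41 to 47.2 CPM in J1 2i and at 914 to 936 CPM in 3B3-3l 2i, while Dnmt3l stood at 47.9 to 55.5 and 285 to 294 CPM. Dnmt3a reads were not absent from 3B3-3l (29.4 to 34.3 CPM in serum and 4 to 5.07 CPM in 2i, against 166 to 167 and 38.9 to 44.5 CPM in J1), and counts summed over a gene do not show which exons they cover. Summed levels of 18 fibroblast markers were 1220 to 1510 CPM in J1 serum, 1590 to 1670 in 3B3-3l serum, 1790 to 2130 in J1 2i and 2240 to 2290 in 3B3-3l 2i. Fn1 (1190 ± 139 CPM in J1 serum and 1726 ± 201 in J1 2i) and Vim (93.8 ± 2.82 and 228 ± 19.9) carried these sums. In each line, 9 of 13 tested fibroblast markers were lower in 2i, such as Col1a1 (28.1 ± 0.209 to 3.28 ± 0.228 CPM in J1), while 3 in J1 and 2 in 3B3-3l were higher. Lum was the only 1 of the 18 without a read in J1 serum, where Dcn had 11 reads, Postn 16 and Col3a1 78, summed over 3 libraries. In either 2i group, Lum, Dcn and Twist2 had no read. Summed levels of 10 primitive endoderm markers were 210 to 238 CPM in J1 serum and 261 to 266 CPM in 3B3-3l serum, and they were 40.8 to 41.9 and 61.1 to 63.5 CPM in 2i, where 4 of 9 tested were lower and 2 higher in J1 and 7 were lower in 3B3-3l. The sums of 11 primitive streak and mesoderm markers were 9.46 to 10.4 and 11.2 to 12 CPM in serum, against 41.8 to 48.1 and 32.2 to 34.1 CPM in 2i. Eomes (2.86 ± 0.142 to 28.1 ± 2.45 CPM in J1) carried much of this rise. Of 10 tested, 4 were higher and 4 lower in 2i in J1, and 5 higher and 3 lower in 3B3-3l. For 9 trophoblast markers the sums were 107 to 120 (J1 serum), 143 to 173 (J1 2i), 195 to 238 (3B3-3l serum) and 159 to 169 CPM (3B3-3l 2i), with Tpbpa at 0 throughout. Of 8 tested, 3 were higher and 4 lower in 2i in each line, among them Krt8 (60.4 ± 3.30 to 113 ± 12.2 CPM in J1) and Krt18 (39.7 ± 2.94 to 11.05 ± 1.64 CPM in J1). Of all genes tested, 33.2% were higher and 32.9% lower in 2i in J1, and 32.7% were higher and 32.7% lower in 3B3-3l. Counts such as 4 of 10 or 3 of 8 thus stood near the background. The 9 of 13 fibroblast markers lower in each line, and the 7 of 9 primitive endoderm markers lower in 3B3-3l, stood above it. The part of these cell types in the results was not tested. In bulk RNA, fewer cells of a type and less RNA per cell cannot be told apart.

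The 8 genes did not move as 1 group between serum and 2i. Id1 and Id2 were lower in 2i in both lines, and Id3 was higher in both. Smad6 was lower and Bmp4 higher in 2i in 3B3-3l, with no call for either gene in J1. A gene was called at an adjusted p under 0.05 over the 17885 genes tested with edgeR. In J1, 5 of the 8 genes were called between 2i and serum, where 66.1% of all genes tested were called. In 3B3-3l it was 6 of the 8, against 65.4% of all genes. Neither share stood far from the background, so the counts say little about these genes, and the size and direction of each gene are given below. Of the 8 genes, 4 had groups that did not overlap in J1 and 7 in 3B3-3l, where 68.7% and 69.6% of all genes did not overlap. The median log2 fold change of the 8 genes was -0.14 in J1 and 0.11 in 3B3-3l, beside a median of 0.01 over all genes in each line.

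**Figure D1:**
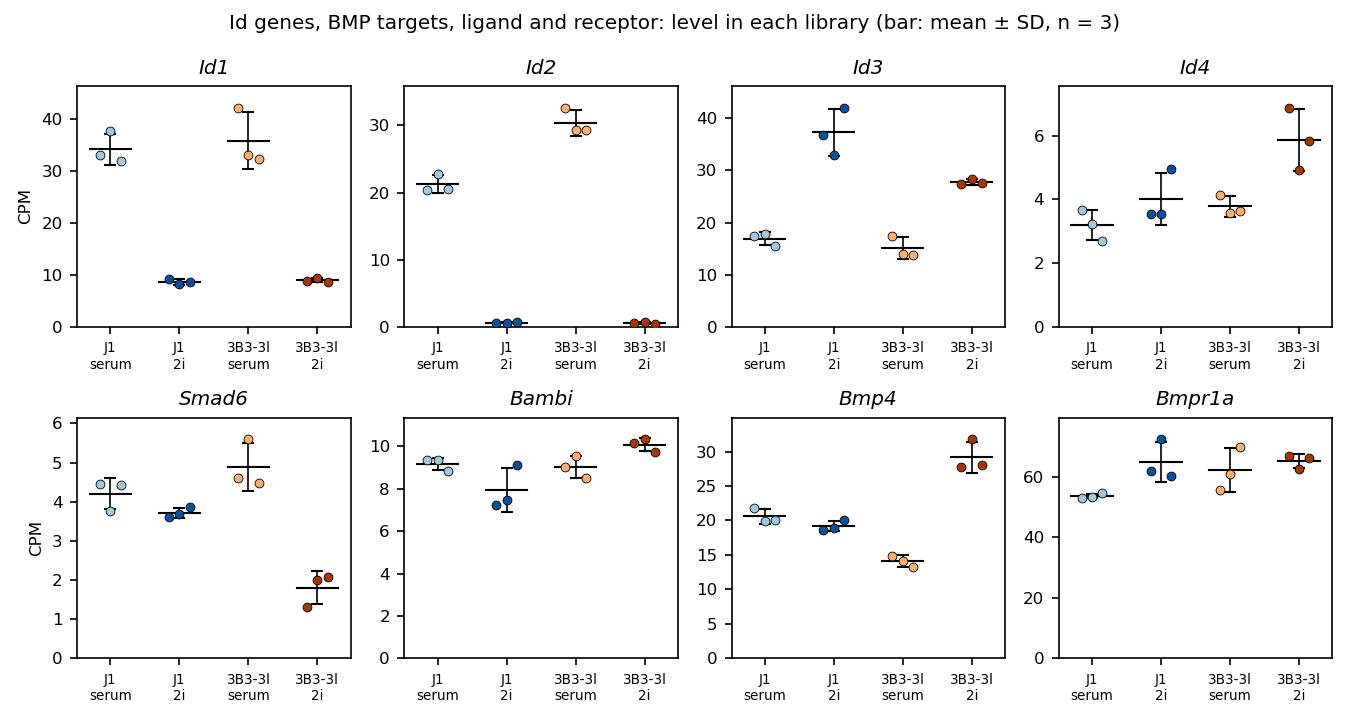
Level of each of the 8 genes in each library, in CPM, with 1 panel per gene and 4 groups on the horizontal axis. Points are libraries, and bars are the mean ± SD of 3 libraries. Id1 stood at 31.9 to 42.1 CPM in serum and 8.15 to 9.45 CPM in 2i, Id2 was near 0 in 2i, and the Bmp4 levels of 3B3-3l lay below those of J1 in serum and above them in 2i.

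Id1, at chromosome 2 (152736251 to 152737410, GRCm38), was the Id gene with the most RNA per unit of length in serum. In J1 serum its libraries held 33.0, 37.6 and 31.9 CPM, and in J1 2i they held 9.25, 8.15 and 8.56 CPM. The 3B3-3l libraries held 42.1, 33.1 and 32.3 CPM in serum and 8.90, 9.45 and 8.59 CPM in 2i. Every serum library was thus above every 2i library, in both lines. The log2 fold change in 2i was -1.98 ± 0.10 (SE) in J1 (3.95-fold lower, edgeR adjusted p = 7.39e-11) and -1.99 ± 0.10 in 3B3-3l (3.98-fold lower, adjusted p = 5.73e-11). The effect of 2i on Id1 differed between the lines by -0.01 on the log2 scale, with a 95% interval of -0.32 to 0.29. The lines themselves differed by 0.07 (interval -0.13 to 0.26) in serum and by 0.05 (interval -0.18 to 0.29) in 2i, and no call was made.

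Id2 fell by the largest fold in 2i among the 8 genes, in both lines. Its serum libraries held 20.3, 22.8 and 20.6 CPM in J1 and 32.6, 29.3 and 29.2 CPM in 3B3-3l. In 2i the libraries held 0.571, 0.551 and 0.756 CPM in J1 and 0.601, 0.649 and 0.387 CPM in 3B3-3l. All 2i libraries were therefore far below all serum libraries, and in serum the 3B3-3l libraries lay above the J1 libraries without overlap. The log2 fold change in 2i was -5.08 ± 0.13 in J1 (33.9-fold lower, edgeR adjusted p = 1.79e-14) and -5.78 ± 0.13 in 3B3-3l (55-fold lower, adjusted p = 5.1e-15). Id2 was higher in 3B3-3l than in J1 in serum by 0.52 ± 0.08 on the log2 scale (adjusted p = 0.000105). In 2i the difference between the lines was -0.18 ± 0.22 (adjusted p = 0.565) and rested on 80 estimated reads in J1 and 68 in 3B3-3l, summed over 3 libraries. The 2i effect was more negative in 3B3-3l by -0.70 ± 0.23 (adjusted p = 0.0307). That call was lost without 3B3-3l 2i replicate 3 (-0.51, adjusted p = 0.119) or without J1 2i replicate 3 (-0.54, adjusted p = 0.116). The few reads of Id2 in 2i thus set how well its difference between the lines is known.

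Id3, which often responds to BMP together with Id1, moved the other way. Its libraries held 17.5, 17.8 and 15.4 CPM in J1 serum and 36.9, 33.1 and 42.0 CPM in J1 2i. In 3B3-3l they held 17.5, 14.0 and 13.8 CPM in serum and 27.4, 28.4 and 27.7 CPM in 2i. Serum and 2i libraries did not overlap in either line, and in 2i the J1 libraries lay above those of 3B3-3l. Id3 rose in 2i by 1.14 ± 0.10 on the log2 scale in J1 (2.2-fold, edgeR adjusted p = 3.07e-08) and by 0.88 ± 0.10 in 3B3-3l (1.85-fold, adjusted p = 7.14e-07). The difference between these effects was -0.26 ± 0.14 and was not called (adjusted p = 0.163). In 2i, Id3 was lower in 3B3-3l than in J1, by -0.42 ± 0.09 (adjusted p = 0.00141). The serum difference between the lines was -0.17 ± 0.10 (adjusted p = 0.201), and without 3B3-3l serum replicate 1 this became -0.29 with a call (adjusted p = 0.0286).

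The sequences before the start sites of Id2 and Id3 are shown because these Id genes moved in opposite directions, and that of Bmp4 because its 2i effect differed between the lines. They are the 250 bases before the RefSeq start on GRCm38.p6, 5′ to 3′ on the strand of the gene. Capitals mark GGCGCC, a GC-rich SMAD1/5 motif, and GTCT, the core SMAD motif, on either strand, so that GTCT on the other strand reads AGAC. The Id2 sequence lies at chr12:25096093-25096342 on the minus strand, Id3 at chr4:136143572-136143821 on the plus strand and Bmp4 at chr14:46390670-46390919 on the minus strand.
Id2: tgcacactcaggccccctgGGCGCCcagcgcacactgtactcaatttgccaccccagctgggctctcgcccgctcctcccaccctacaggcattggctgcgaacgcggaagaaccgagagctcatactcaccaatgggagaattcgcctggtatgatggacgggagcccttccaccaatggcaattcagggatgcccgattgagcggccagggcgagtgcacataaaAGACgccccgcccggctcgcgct
Id3: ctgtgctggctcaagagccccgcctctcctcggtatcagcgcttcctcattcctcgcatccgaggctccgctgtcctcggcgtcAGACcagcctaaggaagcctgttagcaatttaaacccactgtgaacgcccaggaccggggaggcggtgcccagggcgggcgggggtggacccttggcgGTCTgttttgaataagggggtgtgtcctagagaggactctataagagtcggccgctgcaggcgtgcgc
Bmp4: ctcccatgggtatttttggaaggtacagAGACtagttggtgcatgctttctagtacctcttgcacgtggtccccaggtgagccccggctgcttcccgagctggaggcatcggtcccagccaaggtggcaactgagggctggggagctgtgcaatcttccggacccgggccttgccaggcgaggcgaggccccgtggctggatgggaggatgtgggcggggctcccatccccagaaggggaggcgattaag

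Promoter windows were searched for 6 of the 8 genes. Id1 had no window, and windows of listed genes on chromosome 18, where Bambi lies, were left out. GGCGCC was found in 3 of these 6, whereas 9.59% of 32817 mouse promoter windows of this length held it. It lay 231 bases before the start of Id2, 148 before Id4 and 198 before the start used for Bmpr1a. The Bmpr1a window (chr14:34502547-34502796) lay wholly inside the gene span given below, so the start it precedes is an internal one. The 3 genes with the motif did not share a direction, since Id2 fell in 2i in both lines, Id4 rose in 3B3-3l and Bmpr1a was called in J1 as higher. GTCT was found before Id2 (23 bases), Id3 (166 and 68), Smad6 (4) and Bmp4 (222), but this short motif is in 82.9% of windows. The Smad6 window (chr9:64022060-64022309) also reached into the gene span given below, and its GTCT lay inside that span. The E-box CANNTG, the site of E proteins, was found once before Id2 (196 bases) and 3 times before Bmp4 (188, 177 and 123), and 66.2% of windows held it. No match was found for CTTTGA, a TCF/LEF motif (13.8% of windows), or TTCNNNGAA, a STAT motif (7.01% of windows). Motifs were searched on both strands, matches of different motifs did not overlap, and a match is a match of letters only. The GC content of the 6 windows was 62.8% to 78.8%, above the median of 52.4% over all windows.

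Id4, at chromosome 13 (48261116 to 48266028), was the least abundant of the 4 Id genes in serum per unit of length. It ranged from 2.71 to 3.65 CPM in J1 serum, 3.53 to 4.95 in J1 2i, 3.56 to 4.15 in 3B3-3l serum and 4.93 to 6.88 in 3B3-3l 2i. The groups overlapped in J1 and did not overlap in 3B3-3l. Id4 rose in 2i in 3B3-3l by 0.64 ± 0.15 on the log2 scale (edgeR adjusted p = 0.00178), while in J1 the log2 fold change was 0.32 ± 0.16 (adjusted p = 0.0915). The difference between these effects was 0.32 ± 0.22 and was not called (adjusted p = 0.296). In 2i, Id4 was higher in 3B3-3l than in J1 by 0.55 ± 0.15 (adjusted p = 0.00729), although the libraries of the lines overlapped.

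**Figure D2:**
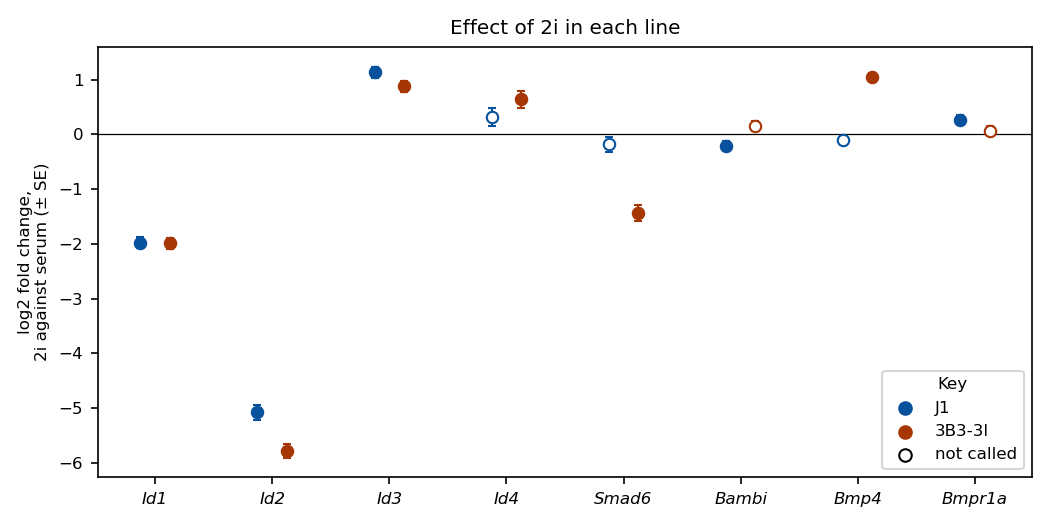
Log2 fold change of the 8 genes in 2i against serum, with the standard error of the fit, in J1 (blue) and 3B3-3l (brown). Filled points were called and open points were not. Id1 and Id2 lie below 0 and Id3 above 0 in both lines, and Smad6 and Bmp4 lie apart in the 2 lines.

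Compared per kilobase of effective transcript length, the Id genes changed places between the media. In J1 serum, Id1 stood at 44.4 ± 3.65 (SD, n = 3) CPM per kilobase, Id2 at 19.3 ± 1.18, Id3 at 16.1 ± 1.43 and Id4 at 2.14 ± 0.319. In J1 2i, Id3 led with 35.2 ± 3.56 CPM per kilobase, Id1 followed with 11.3 ± 0.658, then Id4 with 2.70 ± 0.537 and Id2 with 0.571 ± 0.101. The order in 3B3-3l was the same in each medium. There, Id1 stood at 47.0 ± 6.48 CPM per kilobase in serum and 11.5 ± 0.444 in 2i, and Id3 at 14.2 ± 1.82 and 25.8 ± 0.314. No neighbouring Id genes in these orders overlapped between libraries. The ratio of Id1 to Id3 per kilobase was 2.64 to 2.84 in J1 serum and 3.24 to 3.34 in 3B3-3l serum, and it was 0.286 to 0.347 and 0.439 to 0.461 in 2i. Each library thus had more Id1 than Id3 in serum and less in 2i.

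The summed level of the Id genes was lower in 2i than in serum. It was 81.9 ± 6.19 CPM per kilobase in J1 serum and 49.8 ± 4.24 in J1 2i, and 91.6 ± 9.99 in 3B3-3l serum and 41.8 ± 0.734 in 3B3-3l 2i, and serum and 2i libraries did not overlap in either line. Id1 made up 54.2% ± 0.524 of the sum in J1 serum and 51.2% ± 1.42 in 3B3-3l serum, and 22.9% ± 2 and 27.6% ± 0.928 in 2i. Id3 made up 19.7% and 15.5% in serum, and 70.6% and 61.8% in 2i. Id2 went from 23.5% and 30.5% in serum to 1.14% and 1.18% in 2i, and Id4 from 2.62% and 2.79% to 5.4% and 9.4%. These shares describe the levels above and were not tested.

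**Figure D3:**
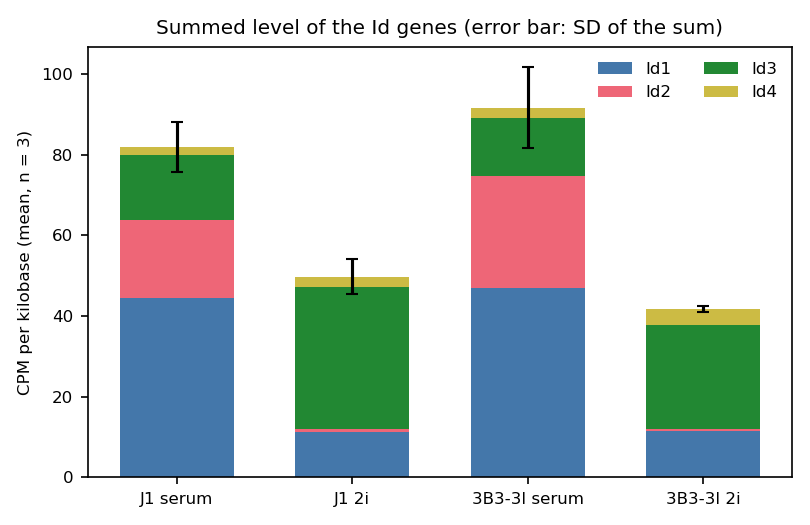
Summed level of Id1, Id2, Id3 and Id4 in each group, in CPM per kilobase of effective transcript length. Coloured segments are means of 3 libraries and the error bar is the SD of the sum. The sum fell from 81.9 in J1 serum to 49.8 in J1 2i and from 91.6 to 41.8 in 3B3-3l, and Id3 was the main segment in 2i.

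Smad6 encodes an inhibitory SMAD that competes for the receptor and for SMAD4, and it lies on chromosome 9 (63953076 to 64022085). Its libraries held 4.44, 3.76 and 4.42 CPM in J1 serum and 3.60, 3.70 and 3.85 CPM in J1 2i. In 3B3-3l they held 4.59, 5.59 and 4.48 CPM in serum and 1.32, 1.99 and 2.09 CPM in 2i. The serum and 2i libraries overlapped in J1 and were well apart in 3B3-3l, where the 2i libraries were also below every library of the other groups. The log2 fold change in 2i was -0.18 ± 0.14 in J1 (edgeR adjusted p = 0.275) and -1.44 ± 0.15 in 3B3-3l (2.72-fold lower, adjusted p = 4.07e-07). The effects differed by -1.26 ± 0.21 (adjusted p = 0.000237). In 2i, Smad6 was lower in 3B3-3l than in J1 by -1.05 ± 0.15 on the log2 scale (adjusted p = 4.46e-05). The serum difference between the lines was 0.22 ± 0.14 (adjusted p = 0.226).

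Bambi encodes a receptor-like protein without a kinase domain that blocks type I receptors. It stood at 8.86 to 9.35 CPM in J1 serum, 7.22 to 9.12 in J1 2i, 8.52 to 9.56 in 3B3-3l serum and 9.75 to 10.3 in 3B3-3l 2i. The J1 groups overlapped, and the 3B3-3l 2i libraries lay above all others. In 2i, Bambi was higher in 3B3-3l than in J1 by 0.35 ± 0.09 on the log2 scale (edgeR adjusted p = 0.00384). Its 2i effect was -0.21 ± 0.09 in J1 (adjusted p = 0.0425) and 0.16 ± 0.09 in 3B3-3l (adjusted p = 0.122), and the effects differed by 0.37 ± 0.12 (adjusted p = 0.0289). The J1 call was lost without replicate 1 (-0.15) or 2 (-0.17) of J1 2i, replicate 1 or 2 of J1 serum (-0.20 each), or replicate 1 or 3 of 3B3-3l 2i (-0.21 each). The call for the difference was lost without replicate 1 (0.37) or 2 (0.33) of 3B3-3l 2i, replicate 3 of 3B3-3l serum (0.33), replicate 1 (0.31) or 2 (0.33) of J1 2i, or replicate 1 or 2 of J1 serum (0.33 each). Both calls are therefore close to the threshold.

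Bmp4, at chromosome 14 (46383525 to 46390669), encodes a BMP ligand that mESCs make themselves. Its libraries held 21.8, 19.9 and 20.1 CPM in J1 serum and 18.6, 18.9 and 20.1 CPM in J1 2i. In 3B3-3l they held 14.9, 14.1 and 13.2 CPM in serum and 27.7, 31.8 and 28.1 CPM in 2i. The J1 groups overlapped, whereas the 3B3-3l serum libraries were the lowest of all 12 and the 3B3-3l 2i libraries the highest. The log2 fold change in 2i was -0.10 ± 0.07 in J1 (edgeR adjusted p = 0.203) and 1.05 ± 0.07 in 3B3-3l (2.07-fold higher, adjusted p = 1.75e-09), and the effects differed by 1.16 ± 0.10 (adjusted p = 5.21e-07). Bmp4 was lower in 3B3-3l than in J1 in serum, by -0.55 ± 0.07 (adjusted p = 2.07e-05), and higher in 2i, by 0.61 ± 0.07 (adjusted p = 3.36e-06). Bmp4 was the 1 gene of the 8 with a called line difference of opposite sign in serum and in 2i. Bmp4 has the protein-coding transcripts Bmp4-001 and Bmp4-002. Of the summed TPM of the gene, Bmp4-001 held 47.0% ± 5.92 in J1 serum, 42.1% ± 2.10 in J1 2i, 53.5% ± 5.86 in 3B3-3l serum and 48.5% ± 8.53 in 3B3-3l 2i. By estimated reads its share was 54.2% ± 6.44, 50.2% ± 2.40, 61.03% ± 6.20 and 56.7% ± 7.69 in the same order.

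Bmpr1a encodes a type I receptor for BMP2 and BMP4 and lies on chromosome 14 (34411061 to 34503336). It ranged from 53.0 to 54.5 CPM in J1 serum, 60.3 to 72.3 in J1 2i, 55.5 to 69.8 in 3B3-3l serum and 62.6 to 66.9 in 3B3-3l 2i. The J1 groups did not overlap, and those of 3B3-3l did. Bmpr1a rose in 2i in J1 by 0.27 ± 0.08 on the log2 scale (edgeR adjusted p = 0.00594) and its log2 fold change in 3B3-3l was 0.07 ± 0.08 (adjusted p = 0.445). The J1 call was lost when the fit took account of transcript lengths (0.26, adjusted p = 0.0669). The difference between the lines in serum, 0.21 ± 0.08, was called (adjusted p = 0.0438), but not without replicate 1, 2 or 3 of 3B3-3l 2i (0.21 each), replicate 2 (0.23) or 3 (0.12) of 3B3-3l serum, replicate 1 of J1 2i (0.21), or replicate 1 (0.20), 2 (0.21) or 3 (0.23) of J1 serum. In 2i the lines differed by 0.01, with a 95% interval of -0.16 to 0.17. The transcript Bmpr1a-002 held 25.9% ± 0.0631 of the TPM of the gene in 3B3-3l 2i and 18.04% ± 4.61 in J1 2i. In serum it held 18.2% ± 2.22 in 3B3-3l and 19.9% ± 2.32 in J1. By estimated reads its share was 6.025% ± 0.290 in 3B3-3l 2i and 3.69% ± 1.18 in J1 2i. Most reads fell to Bmpr1a-001, with group means of 74.3% to 80.1%.

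Between the lines, 3 of the 8 genes were called in serum (Id2 and Bmpr1a higher and Bmp4 lower in 3B3-3l), where 38.7% of all genes were called (21.5% higher and 17.2% lower). In 2i it was 5 (Id4, Bambi and Bmp4 higher, Id3 and Smad6 lower), where 45.9% of all genes were called (23.0% higher and 22.9% lower). In each medium, 4 of the 8 genes had groups that did not overlap between the lines, against 50.9% of all genes in serum and 52.6% in 2i. The 2i effect differed between the lines for 4 of the 8 genes (Bmp4 and Bambi more positive, Id2 and Smad6 more negative in 3B3-3l), where 34.7% of all genes differed (16.3% more positive and 18.3% more negative). These 5 comparisons share libraries with each other, so their calls are not independent.

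Per kilobase, the places of the non-Id genes among the 8 also changed between the media. In J1 serum, Bmpr1a stood at 15.8 ± 1.54 CPM per kilobase, which overlapped Id3, and Bmp4 at 12.6 ± 0.480. Bambi (1.89 ± 0.0571) overlapped Id4, and Smad6 (1.58 ± 0.236) was the lowest. In J1 2i, Bmpr1a (19.0 ± 2.76) came second after Id3, and Bmp4 (12.1 ± 0.466) overlapped Id1. In 3B3-3l serum, Bmpr1a (18.5 ± 3.14) and Id3 overlapped, as did Bambi (1.86 ± 0.106) and Smad6 (1.82 ± 0.161). In 3B3-3l 2i, Bmpr1a (21.4 ± 0.303) and Bmp4 (18.04 ± 1.96) followed Id3, and at the low end Smad6 (0.642 ± 0.149) overlapped Id2 (0.492 ± 0.123).

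The other genes of the pathway were taken from 6 lists of 63 genes, of which 48 were tested. In J1, 15 of them were higher and 22 lower in 2i, and in 3B3-3l 13 were higher and 26 lower, where 33.2% and 32.7% of all genes were higher and 32.9% and 32.7% lower. Median log2 fold changes over the 48 genes were -0.17 in J1 and -0.41 in 3B3-3l. Among 6 ligands tested, 1 was higher and 4 lower in J1, and 1 was higher and 3 lower in 3B3-3l. Of the lower ligands, all but Bmp8b had group means of 1.06 CPM or less. Gdf6 had 2 reads in J1 2i and 3 in 3B3-3l 2i, summed over 3 libraries. Among 9 receptors and coreceptors, 3 were higher and 3 lower in J1, and 3 higher and 5 lower in 3B3-3l. Of 12 SMADs and regulators, 5 were higher and 5 lower in J1, and 3 higher and 5 lower in 3B3-3l. Of 10 extracellular antagonists tested, 2 were higher in each line, and 6 were lower in J1 and 7 in 3B3-3l. Among 8 other BMP targets, 2 were higher and 3 lower in J1, and 2 higher and 6 lower in 3B3-3l. Of the 3 E protein genes, Tcf4 and Tcf12 rose in both lines, and Tcf3 was lower in J1.

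**Figure D4:**
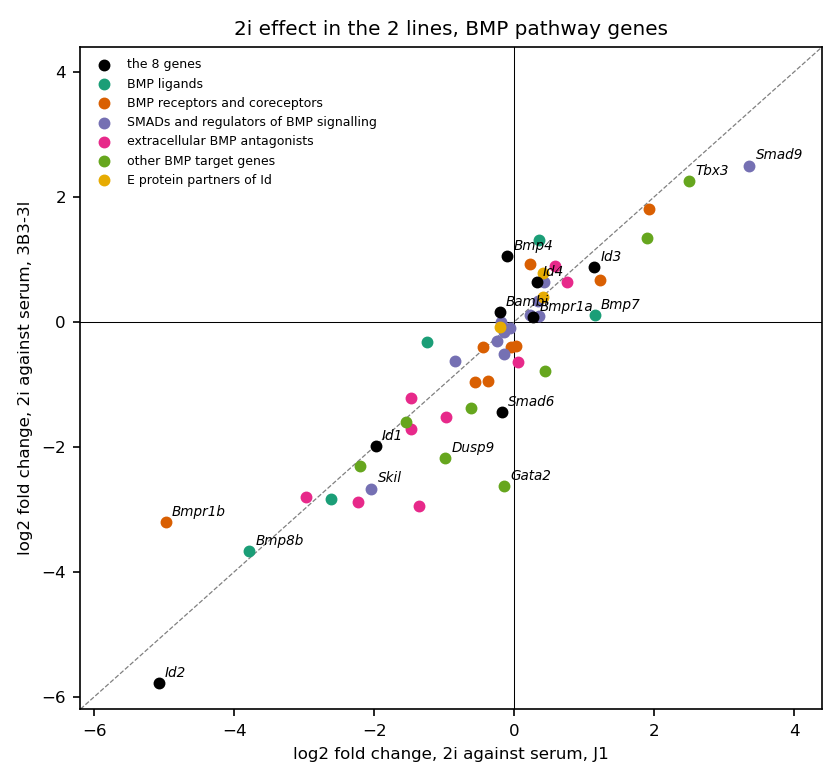
Log2 fold change in 2i against serum in J1 (horizontal axis) and in 3B3-3l (vertical axis) for the 8 genes (black) and 46 other BMP pathway genes, coloured by list. Each point is 1 gene with more than 3 reads summed over the libraries of each group, and the dashed line marks equal effects. Id2 (-5.08 and -5.78) lies at the lower left, Smad9 and Tbx3 at the upper right, and Bmp4, Smad6 and Gata2 lie away from the dashed line.

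Of the ligand genes, Bmp7 was called as higher in 2i in J1 only, and Bmp4 in 3B3-3l only. Bmp7 held 5.92, 4.63 and 5.83 CPM in J1 serum and 13.7, 11.4 and 11.2 CPM in J1 2i, but 6.92, 6.83 and 6.85 CPM in 3B3-3l serum and 7.48, 7.83 and 6.83 CPM in 3B3-3l 2i. It rose in 2i in J1 by 1.15 ± 0.10 on the log2 scale (edgeR adjusted p = 7.14e-08), its log2 fold change in 3B3-3l was 0.11 ± 0.10 (adjusted p = 0.395), and the effects differed by -1.04 ± 0.15 (adjusted p = 6.49e-05). In 2i, Bmp7 was lower in 3B3-3l than in J1 by -0.71 ± 0.10 (adjusted p = 2.77e-05). In serum, Bmp7 was higher in 3B3-3l by 0.33 ± 0.11 (adjusted p = 0.0235). That call was lost without any 1 of the 3B3-3l serum libraries or without J1 serum replicate 2. Bmp8b, chosen after its values were seen, fell in both lines, with 4.17 to 4.94 CPM in J1 serum and 0.146 to 0.528 CPM in J1 2i (-3.79 ± 0.24, adjusted p = 1.14e-09), and 4.66 to 5.90 and 0.361 to 0.487 CPM in 3B3-3l (-3.67 ± 0.23, adjusted p = 7.94e-10). Of Bmp4 and Bmp7, Bmp4 was thus the higher one in 3B3-3l 2i relative to J1 and Bmp7 the lower one.

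Among receptors, the type I receptor gene Acvr1 rose in 2i in both lines. J1 had 7.22 ± 1.38 CPM of Acvr1 in serum and 16.9 ± 1.26 CPM in 2i (log2 fold change 1.23 ± 0.11, edgeR adjusted p = 4.22e-08) and in 3B3-3l it rose from 10.02 ± 0.459 to 16.0 ± 0.636 CPM (0.67 ± 0.10, adjusted p = 2.75e-05). Eng, which encodes a coreceptor of the family, rose from 24.5 ± 1.5 to 46.8 ± 0.921 CPM in 3B3-3l (0.93 ± 0.06, adjusted p = 1.94e-09) while J1 had 32.4 ± 1.94 CPM in serum and 37.8 ± 2.23 CPM in 2i (0.22 ± 0.06, adjusted p = 0.00539), and these effects differed by 0.71 ± 0.09 (adjusted p = 1.89e-05). In serum, Eng was lower in 3B3-3l than in J1 by -0.41 ± 0.06 (adjusted p = 0.00013) and the BMP coreceptor gene Rgmb higher by 0.59 ± 0.08 (adjusted p = 5.46e-05). The receptor gene Bmpr1b was singled out after its values were seen. Its J1 serum libraries held 4.92, 5.18 and 4.93 CPM and its J1 2i libraries 0.160, 0.161 and 0.146 CPM (log2 fold change -4.98 ± 0.23, adjusted p = 1.85e-11), while in 3B3-3l it went from 1.67 ± 0.197 to 0.179 ± 0.100 CPM (-3.21 ± 0.25, adjusted p = 1.2e-08). Bmpr1b and Id2 were thus both close to absent in 2i, whereas Bmpr1a was at 60.3 CPM or more there.

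Among SMADs and their regulators, Skil, which encodes a repressor of SMAD activity, fell in 2i. J1 went from 164 ± 6.03 to 40.0 ± 2.15 CPM (log2 fold change -2.04 ± 0.07, edgeR adjusted p = 7.8e-13) and 3B3-3l from 179 ± 15.7 to 28.2 ± 2.16 CPM (-2.67 ± 0.07, adjusted p = 4.12e-14). Its relative Ski fell by 0.84 in J1 and by 0.63 in 3B3-3l on the log2 scale, and the difference of 0.21 (adjusted p = 0.0162) was lost without 3B3-3l 2i replicate 2 or without replicate 1 or 3 of J1 serum (lowest value over all alternatives 0.16, highest adjusted p 0.0855). Smad1 was higher in 3B3-3l than in J1 in 2i by 0.42 ± 0.06 (adjusted p = 1.41e-05). In serum, Zfyve9, an anchor protein for SMADs, was higher in 3B3-3l by 0.59 ± 0.07 (adjusted p = 5.82e-06), and Smurf2, a ubiquitin ligase of the pathway, was lower by -0.24 ± 0.07 (adjusted p = 0.00964), which was no longer called with transcript lengths (adjusted p = 0.0578). Smad9, chosen after its values were seen, rose in J1 from 0.571 ± 0.152 to 5.86 ± 0.414 CPM (3.36 ± 0.17, adjusted p = 7.22e-11) and in 3B3-3l from 1.01 ± 0.224 to 5.72 ± 0.221 CPM (2.50 ± 0.16, adjusted p = 7.46e-10). Smad9 was the gene of this list with the highest log2 fold change in both lines, and Skil the one with the lowest.

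**Figure D5:**
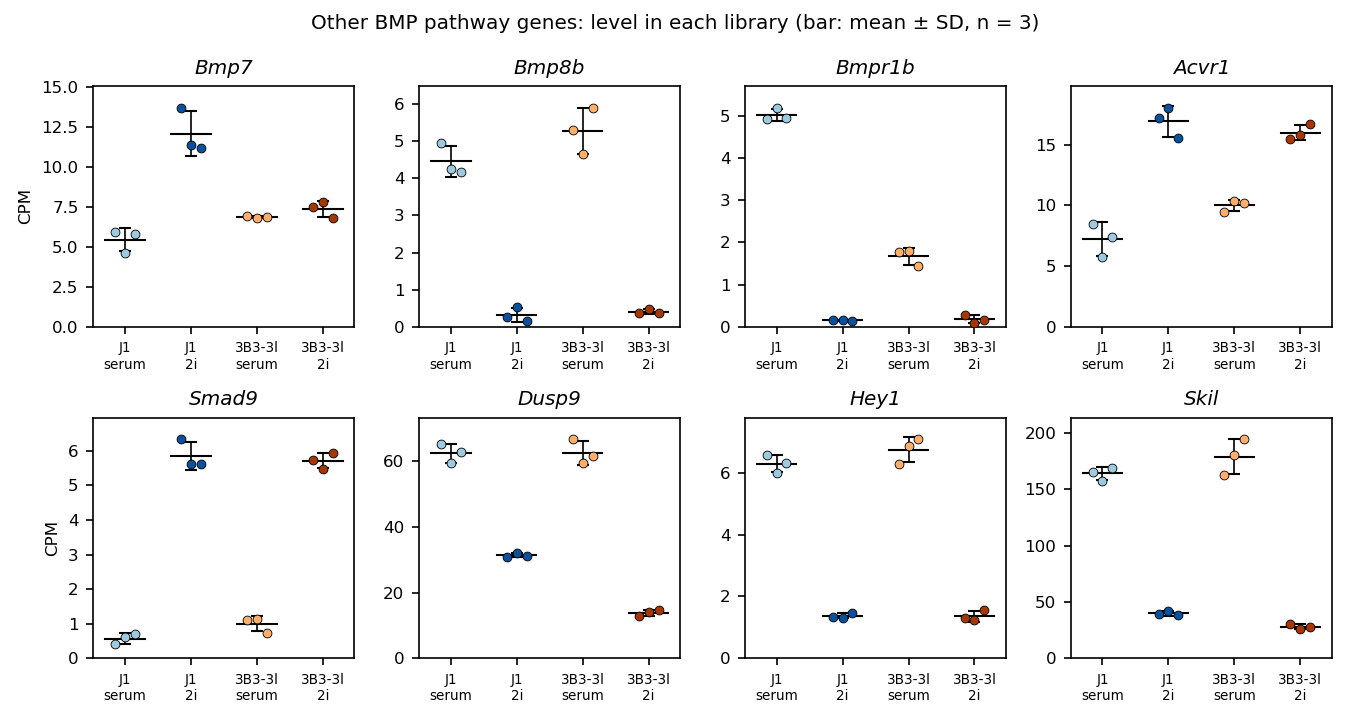
Level of 8 further BMP pathway genes in each library, in CPM, with 1 panel per gene. Points are libraries, and bars are the mean ± SD of 3 libraries. Bmp8b, Bmpr1b, Dusp9, Hey1 and Skil were lower in 2i in both lines, Acvr1 and Smad9 were higher in both, and Bmp7 was higher in 2i in J1 (11.2 to 13.7 CPM) than in the other groups.

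Other BMP targets also moved in opposite directions in 2i. Tbx3, a transcription factor gene of the naive state, rose in J1 from 39.0 ± 1.07 to 220 ± 10.6 CPM (log2 fold change 2.50 ± 0.06, edgeR adjusted p = 9.29e-15) and in 3B3-3l from 50.4 ± 3.66 to 240 ± 1.23 CPM (2.25 ± 0.06, adjusted p = 1.86e-14). Dusp9, which encodes an ERK phosphatase induced by BMP in mESCs, fell in J1 from 62.3 ± 2.92 to 31.4 ± 0.538 CPM (-0.99 ± 0.06, adjusted p = 6.79e-10) and in 3B3-3l from 62.4 ± 3.75 to 13.8 ± 0.958 CPM (-2.18 ± 0.06, adjusted p = 9.7e-14), and these effects differed by -1.19 ± 0.09 (adjusted p = 1.28e-07). Prdm1, a transcription factor gene of germ cell fate, fell by 1.54 in J1 (adjusted p = 5.43e-12) and by 1.60 in 3B3-3l (adjusted p = 5.12e-12) on the log2 scale, and was lower in 3B3-3l in serum by -0.47 ± 0.06 (adjusted p = 1.94e-05). Chosen after their values were seen, Hey1 fell in J1 from 6.30 ± 0.283 to 1.37 ± 0.0812 CPM (adjusted p = 7.48e-11) and in 3B3-3l from 6.74 ± 0.407 to 1.36 ± 0.168 CPM (adjusted p = 3.55e-11). Gata2 held 3.42 ± 0.442 CPM in J1 serum and 3.08 ± 0.126 in J1 2i, but 9.82 ± 2.04 in 3B3-3l serum and 1.59 ± 0.113 in 3B3-3l 2i, and its effects differed by -2.48 ± 0.22 (adjusted p = 7.03e-07).

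The antagonist gene Fstl1 was higher in 3B3-3l than in J1 in serum by 0.67 ± 0.06 on the log2 scale (edgeR adjusted p = 8.6e-07). Twsg1, which encodes a secreted BMP binding protein, was lower in 3B3-3l in 2i by -0.64 ± 0.06 (adjusted p = 8.81e-07), with 26.6 ± 2.28 CPM against 38.6 to 43.4 CPM over the libraries of the other groups, and its 2i effects differed by -0.71 ± 0.09 (adjusted p = 2.19e-05). The E protein gene Tcf4 rose in J1 from 34.8 ± 0.746 to 46.2 ± 2.06 CPM (0.41 ± 0.06, adjusted p = 1.85e-05) and in 3B3-3l from 34.7 ± 1.57 to 59.6 ± 4.21 CPM (0.78 ± 0.06, adjusted p = 9.48e-09), and these effects differed by 0.37 ± 0.08 (adjusted p = 0.00317). Tcf12 was higher in 3B3-3l than in J1 in 2i by 0.33 ± 0.07 (adjusted p = 0.000855). Tcf3, the gene of these 3 that the rule for naming did not pick, held 195 ± 2.91 CPM in J1 serum and 169 ± 14.7 in J1 2i (-0.21, adjusted p = 0.014). In 3B3-3l it held 192 ± 19.2 and 181 ± 1.49 CPM (-0.09, adjusted p = 0.277). In J1, 2 to 3 of the E protein genes were called when 1 library was left out. Tcf4 and Tcf12 kept their calls, so the call for Tcf3 depended on the libraries used. The E protein genes thus did not share a direction in J1 in the main fit, and this rests on Tcf3.

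Genes with the pattern most like each of 6 of the 8 genes were taken by Pearson correlation of log2 CPM over the 12 libraries, among 9983 genes that reached a group mean of 10 CPM. The libraries share media and lines, so the values describe likeness and have no test. Nearest to Id1 were Efs (r = 0.995) and Acta2 (0.994), the last a gene of the fibroblast list, and nearest to Id2 were Cldn6 (0.998) and Hapln4 (0.998). Id3 was nearest to Ubac2 (0.996) and Ptpmt1 (0.989), Bmp4 to Nfyc (0.98) and Vps53 (0.964), and Bmpr1a to Usp9x (0.974) and Rock2 (0.971). For Bambi the nearest were Gm13408 (0.954) and Fcf1 (0.929). Id4 and Smad6 were under 10 CPM in each group and were not compared.

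Within a gene, the main transcript stayed the same across groups for the Id genes with more than 1 annotated transcript. Id1-001 held 96.8% to 98.8% of the TPM of Id1 as group means, and Id3-001 held 90.2% to 93.1% of that of Id3. The retained-intron transcript Id3-002 held 5.87% to 8.11%. Smad6-001 held 100% of the TPM of Smad6 in both 2i groups and 95.3% ± 8.18 and 95.7% ± 3.74 in J1 serum and 3B3-3l serum. By estimated reads its share was 99.5% ± 0.836 in J1 serum and 99.6% ± 0.347 in 3B3-3l serum. The other transcript, Smad6-002, had at most 2.36 estimated reads in any library, so these TPM shares show no change of transcript. Id2, Id4 and Bambi had 1 annotated transcript each.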

How the data were processed

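RNA from 3 biological replicates of each of 4 groups was analysed, as given by the labels. The authors prepared stranded poly(A) libraries, quantified mm10 transcripts with Sailfish (version 0.9.2 in the submitters' processing notes) and summed the estimates with tximport into the deposited gene table of estimated counts, without scaling for depth or length. The deposited transcript tables hold TPM and estimated counts per transcript. The methods name RefSeq models, while the identifiers are those of Ensembl. The libraries ran in pools that the labels do not identify, so pool effects were not assessed. Symbols were matched for 85.6% of 39017 genes.

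Estimated counts were rounded. Genes were filtered by filterByExpr, libraries were scaled by TMM (factors 0.97 to 1.038) and edgeR (version 4.0.16, R 4.3.3) fitted a quasi-likelihood model to all 12 libraries, with 5 contrasts and Benjamini-Hochberg adjusted p over 17885 genes. The biological coefficient of variation was 6.49%. A count of 3 equals 0.0684 to 0.0813 CPM. This floor covers counting error only, since reads had no molecular identifiers. Replicates differed beyond sampling noise (chi-square per gene 3.93 or more). CPM per kilobase used effective lengths weighted by TPM, because 18.8% to 50.2% of TPM fell to transcripts whose effective length was below 50 bases. The script was tested on simulated data. The 8 genes were matched by symbol. Promoter sequences and positions are from RefSeq (GRCm38.p6).

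The 8 genes, the pathway lists and the marker lists were chosen with earlier results of these data known. Pathway genes were named by rule: in each contrast the 3 most raised and the 3 most lowered called genes by log2 fold change, with at least 10 CPM in the higher group and groups that do not overlap (the last not for the difference between the lines), and genes named outside it are marked in the text. For each of the 8 genes at 10 CPM or more in a group, the 2 genes with the most similar pattern were named. Alternatives were DESeq2 (version 1.42.0) size factors and its Wald test, no filter, at least 10 counts in every library, a fit to only those 6 libraries that are compared, a block for replicate number, transcript length offsets, leaving out each library, TPM without short transcripts for levels, and transcript shares from reads instead of TPM. The same alternatives for named pathway genes were added after seeing the data.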

Additional observations from a re-analysis of the deposited data

Results flagged for a closer look

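By the edgeR test of the difference itself, the 2i effect differed between the lines for 4 of the 8 genes. It also differed for 21 of the 48 pathway genes tested, 5 more positive and 16 more negative in 3B3-3l. The log2 differences (3B3-3l minus J1) of the 4 genes were -0.70 for Id2, -1.26 for Smad6, 0.37 for Bambi and 1.16 for Bmp4. For the pathway genes they were -1.04 for Bmp7, 0.71 for Eng, 0.21 for Ski, -0.71 for Twsg1, -1.19 for Dusp9 and 0.37 for Tcf4. Among all genes tested, 34.7% differed in this way, and among the 48 pathway genes 43.8%. The calls for Id2, Bambi and Ski were lost when certain single libraries were left out, as given with those genes. Those for Rgmb, Tbx3 and Zfyve9 were lost under some alternatives.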

How the results depend on the processing

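Of 752 log2 fold changes of the 8 genes under alternatives, 699 kept their direction and their side of the threshold, 33 lost their call, 1 gained one and 19 changed sign. No called value changed sign. The count of the 8 genes called in J1 fell from 5 to 3 with transcript length offsets, where Bambi (-0.22, adjusted p = 0.0574) and Bmpr1a (0.26, adjusted p = 0.0669) were lost. The J1 effect on Bambi ranged from -0.32 to -0.15 over all alternatives (adjusted p 0.00205 to 0.181) and was also lost with the DESeq2 Wald test (-0.23) and a fit to 6 libraries (-0.23). The serum difference of Bmpr1a ranged from 0.12 to 0.29 (adjusted p 0.00909 to 0.241) and was lost with DESeq2 size factors (0.20), 6 libraries (0.19) and length offsets (0.23). With the replicate number as a block, Bambi in J1 (-0.21, adjusted p = 0.0627) and Bmpr1a in serum (0.21, adjusted p = 0.0611) were lost. Same-numbered libraries had correlations of -0.462 to 0.178 in their deviations over 18 pairs, of which 3 were over 0.1, so the numbers gave no sign of pairing. Some libraries of unlike number were more alike or unlike. J1 2i replicate 2 had 0.664 with 3B3-3l serum replicate 3 and -0.674 with 3B3-3l serum replicate 1. The causes of these correlations and of the lost calls were not tested. The values that changed sign were none of them called. Bmpr1a between the lines in 2i was -0.01 with no filter, -0.02 with at least 10 counts, -0.01 with 6 libraries and -0.04 to 0.09 when 1 library was left out. Leaving out 1 library also gave -0.01 to 0.10 for Id1 and -0.35 to 0.01 for Id2 between the lines in 2i, -0.07 to 0.14 for Id1 and -0.07 to 0.02 for Bambi in serum, 0 to 0.16 for Bmpr1a in 3B3-3l and -0.11 to 0.12 for the difference of Id1. The difference of Id2 ranged from -0.87 to -0.51 and that of Bambi from 0.31 to 0.48 when 1 library was left out. Ranks of the 8 genes per kilobase were the same for all 32 values in TPM without short transcripts. The levels themselves moved in all 32, such as Id1 in J1 serum from 44.4 CPM per kilobase to 62.5 TPM, which is another unit. Of 35 transcript shares, 24 moved by more than 1 SD when reads replaced TPM. Depth limits Id2 and Bmpr1b in 2i, and 3 libraries per group limit small effects.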
